A study of Mus musculus with 6 samples.

Results

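The 10 genes described here make the core of MHC antigen presentation in the mouse. The class I set held 6 of them, H2-K1, H2-D1, B2m, Tap1, Tap2 and Tapbp, and the class II set held 4, Cd74, H2-Aa, H2-Ab1 and H2-Eb1. They were taken by symbol from a liver expression table of 13273 genes, and each symbol was found in it. The table came from whole livers of wild type C57Bl/6 females that were 2 months old when feeding began. The ETOH-WT mice drank a Lieber–DeCarli liquid diet for 3 weeks, in which ethanol was stepped up to a final 6.4% v/v. The PF-WT mice were pair-fed an isocaloric liquid diet with no ethanol. There were 3 mice in each group, with 1 library per mouse. Each diet also had its own label code, shared by its 3 mice, and the code and the diet cannot be told apart. Levels are in FPKM, fragment counts scaled by transcript length and by the size of the library, so that different genes can be set side by side per length.

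MHC class I molecules show peptides made inside a cell to CD8 T cells, and nearly every nucleated cell carries them. Proteasomes cut proteins into peptides, the TAP transporter moves the peptides into the endoplasmic reticulum, and tapasin holds an empty class I molecule beside TAP until a peptide fits. MHC class II molecules show peptides from engulfed material to CD4 T cells and are made mainly by dendritic cells, B cells and macrophages, which in the liver include the Kupffer cells. The C57Bl/6 strain carries the b haplotype of this locus, in which the class II E alpha gene is silent, so that the H2-Eb1 chain has no partner and the A molecule, from H2-Aa and H2-Ab1, is the class II molecule at the cell surface.

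Of the 10 genes, 8 lie on chromosome 17 between 33915899 and 35267499 (GRCm38), within 1.35 Mb. B2m, the invariant light chain of class I, lies on chromosome 2, and Cd74 lies on another chromosome. The promoters below are printed because MHC genes share short elements, some of which the regulators measured further on act through. No NF-kB gene was among those regulators. Each holds 185 bases, the last 10 of them from the RefSeq start onward, on GRCm38.p6 and read on the gene's own strand. Capitals mark matches on either strand to the Y box CTGATTGG (CCAATCAG on the other strand), the motif of the NF-Y complex, to the interferon response element core TTTCACTTC, and to GGGATTCCC, the NF-kB site of enhancer A. The H2-K1 window is chr17:34000324-34000508 on the minus strand, at the more downstream of 2 RefSeq starts, and that of H2-D1 is chr17:35262919-35263103 on the plus strand.
H2-K1: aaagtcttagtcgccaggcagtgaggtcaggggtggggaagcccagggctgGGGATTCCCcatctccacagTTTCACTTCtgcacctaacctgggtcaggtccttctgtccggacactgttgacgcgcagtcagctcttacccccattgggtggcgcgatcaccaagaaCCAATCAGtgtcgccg
H2-D1: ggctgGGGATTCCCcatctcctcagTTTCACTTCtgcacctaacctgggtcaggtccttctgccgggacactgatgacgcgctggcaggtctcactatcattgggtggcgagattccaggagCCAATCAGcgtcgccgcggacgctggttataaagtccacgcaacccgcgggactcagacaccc

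Both classical class I promoters held all 3 elements. In H2-D1 the NF-kB site ran from -170 to -162, the interferon element from -150 to -142 and the Y box from -53 to -46, counted from the start. In H2-K1 they ran from -124 to -116, from -104 to -96 and from -6 to 2, in the same order and closer to the RefSeq start. The class II windows of H2-Aa, chr17:34287814-34287998 on the minus strand, and of H2-Eb1, chr17:34305692-34305876 on the plus strand, held the Y box only, from -51 to -44 and from -62 to -55.
H2-Aa: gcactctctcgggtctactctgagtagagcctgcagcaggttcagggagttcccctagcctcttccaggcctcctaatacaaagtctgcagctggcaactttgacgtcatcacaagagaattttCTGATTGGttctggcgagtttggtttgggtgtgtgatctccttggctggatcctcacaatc
H2-Eb1: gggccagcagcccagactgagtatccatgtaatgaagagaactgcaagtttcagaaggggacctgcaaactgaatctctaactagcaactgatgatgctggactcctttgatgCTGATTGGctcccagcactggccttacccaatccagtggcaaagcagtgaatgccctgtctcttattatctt

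RefSeq promoters were matched for 7 of the 10 genes, and none was at hand for Tap2, Cd74 and H2-Ab1. In the RefSeq windows, which are longer than the stretches printed, 5 of the 7 held the Y box, against 4.1% of 32851 promoters. The interferon element was in 2 of the 7, against 0.505% of all promoters, and the NF-kB site in 2 of the 7, against 0.353%. A match is a run of letters and not a measured binding site.

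Across the 6 livers B2m was the most abundant of the 10, at 2818 ± 55.0 FPKM in ETOH-WT and 2917 ± 71.3 FPKM in PF-WT livers (SD, n = 3 each), which placed it at rank 20 of the table. H2-K1 and H2-D1, the heavy chains that carry the peptide, followed at 643 ± 24.1 and 291 ± 17.5 FPKM in ETOH-WT livers, and 720.2 ± 50.7 and 247 ± 38.2 FPKM in PF-WT livers. The order B2m, H2-K1, H2-D1, Cd74 held in 6 of 6 livers, with no overlap between the ranges of neighbours. Cd74 was above Tapbp in 5 of 6 livers and Tapbp above H2-Aa in 5 of 6, so these neighbours were not separated. Among the class II chains H2-Aa was above H2-Ab1, and H2-Ab1 above H2-Eb1, in every one of the 6 livers, although the ranges over livers overlapped. H2-Eb1 against Tap2 and Tap2 against Tap1 kept their order in 5 of 6 livers. Tap1 was the lowest, at 6.83 ± 0.425 FPKM in ETOH-WT and 10.2 ± 3.84 FPKM in PF-WT livers.

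To ask whether ethanol feeding altered these genes, ETOH-WT livers were compared with PF-WT livers by limma on log2(FPKM + 1) over the 11346 genes that averaged 0.5 FPKM or more, with Benjamini-Hochberg adjustment and a threshold of 0.05. None of the 10 genes passed in either direction, while 3.97% of all genes tested were higher and 2.67% lower in ETOH-WT livers (6.64% in all). None had an unadjusted p under 0.05, against 23.7% of all genes tested, and for none were the 3 livers of one diet apart from the 3 of the other, against 29.1% of all genes. The log2 differences, ETOH-WT minus PF-WT, were negative for 9 of the 10 and positive for H2-D1. Their median was -0.11 over the class I set and -0.67 over the class II set, beside 0.02 over all genes tested. With livers weighted by their fit (limma array weights), Tapbp was lower in ETOH-WT livers at a log2 difference of -0.26 (adjusted p = 0.0450), and in the other alternatives 0 of the 10 passed.

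**Figure D1:**
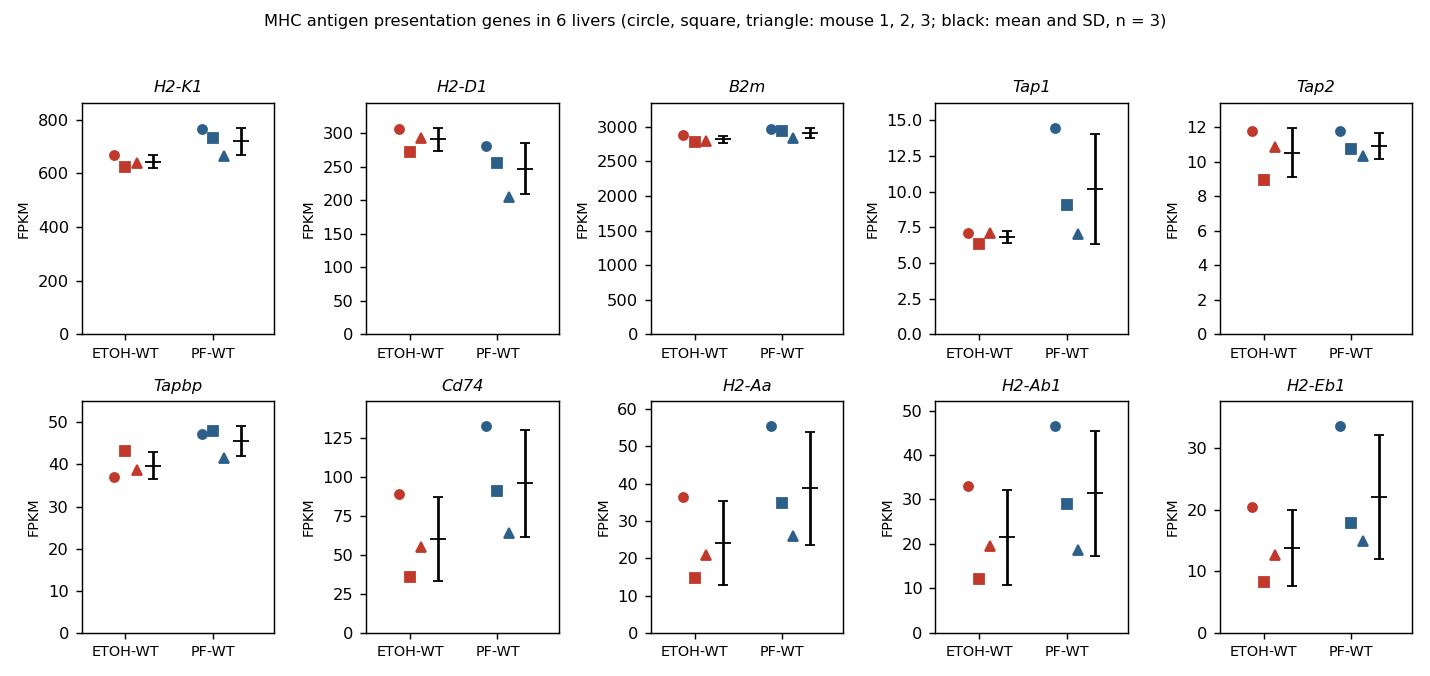
FPKM of each of the 10 MHC genes (y axes from 0) in ETOH-WT livers (red) and PF-WT livers (blue), 1 point per mouse, with the mean and SD (n = 3) in black. The groups overlap in all 10 panels, and the class II genes range more widely within a diet than B2m, H2-K1 or Tapbp.

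H2-K1 had 669.8, 623 and 638 FPKM in ETOH-WT livers, against 764, 731 and 665 FPKM in PF-WT livers. ETOH-WT 1 was just above PF-WT 3, and the other ETOH-WT livers were below all PF-WT livers. The log2 difference was -0.16 (SE 0.10, 95% interval -0.39 to 0.06, limma adjusted p = 0.362). H2-D1 had 307, 272 and 293 FPKM in ETOH-WT livers, against 281, 255 and 205 FPKM in PF-WT livers. Here ETOH-WT 2 lay inside the PF-WT range and the other ETOH-WT livers were above it. The log2 difference was 0.24 (SE 0.13, 95% interval -0.05 to 0.54, limma adjusted p = 0.289), and it was 0.12 without PF-WT 3.

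The 2 heavy chains were next compared within a liver, where the scaling of the library cancels. The ratio of H2-K1 to H2-D1 was 2.18, 2.29 and 2.18 in ETOH-WT livers, against 2.72, 2.87 and 3.24 in PF-WT livers. All ETOH-WT ratios were below all PF-WT ratios, with a log2 difference of -0.41 (exact two-sided permutation p = 0.1, the smallest that 3 against 3 livers can give, and 0.3 when adjusted over the 6 ratios tested). A ratio within a liver shows unequal change and not which gene changed. Of the 51-base stretches of their transcripts, 6.41% in H2-K1 and 13.3% in H2-D1 also occurred in another gene, so part of their reads could not be assigned with certainty.

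B2m pairs with every class I heavy chain. It had 2881, 2781 and 2792 FPKM in ETOH-WT livers, against 2973, 2941 and 2837 FPKM in PF-WT livers. It varied least of the 10, with the highest liver 1.07 times the lowest, and its log2 difference was -0.05 (95% interval -0.30 to 0.20, limma adjusted p = 0.825). The sum of H2-K1 and H2-D1 relative to B2m was 0.339, 0.322 and 0.333 in ETOH-WT livers, against 0.351, 0.335 and 0.307 in PF-WT livers. These ratios overlapped and averaged 0.331 in both diets (exact permutation p = 1).

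The peptide transporter is made of Tap1 and Tap2. Tap1 had 7.08, 6.34 and 7.07 FPKM in ETOH-WT livers, against 14.5, 9.06 and 7.06 FPKM in PF-WT livers. The ETOH-WT livers were alike, PF-WT 1 was the highest, and PF-WT 3 was level with ETOH-WT livers. The log2 difference was -0.46 (SE 0.21, 95% interval -0.96 to 0.03, limma adjusted p = 0.239), and it was -0.20 without PF-WT 1 and -0.67 without PF-WT 3, with no call in either case. Tap2 had 11.8, 8.97 and 10.8 FPKM in ETOH-WT livers, against 11.8, 10.7 and 10.3 FPKM in PF-WT livers, with overlapping groups and a log2 difference of -0.05 (95% interval -0.32 to 0.21, limma adjusted p = 0.819). Tapbp, which encodes tapasin, had 37.1, 43.2 and 38.8 FPKM in ETOH-WT livers, against 47.2, 47.9 and 41.4 FPKM in PF-WT livers. Only ETOH-WT 2 was above the lowest PF-WT liver, and the log2 difference was -0.19 (95% interval -0.42 to 0.03, limma adjusted p = 0.275). Tapbp shared 22.2% of its 51-base stretches with other genes, mostly Gm19412, and Tap2 shared 12.0%.

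Among class II genes, Cd74 encodes the invariant chain, which fills the groove of a new class II molecule and guides it to the endosome, and its gene lies on chromosome 18 (60803848 to 60812646). It had 89.1, 35.9 and 55.2 FPKM in ETOH-WT livers, against 132, 90.8 and 64.3 FPKM in PF-WT livers. PF-WT 1 was the highest and ETOH-WT 2 the lowest, and ETOH-WT 1 was above PF-WT 3. The log2 difference was -0.70 (SE 0.34, 95% interval -1.49 to 0.10, limma adjusted p = 0.268). The alpha chain gene H2-Aa had 36.5, 14.7 and 20.9 FPKM in ETOH-WT livers, against 55.5, 34.7 and 26.0 FPKM in PF-WT livers, again with PF-WT 1 highest and ETOH-WT 2 lowest. The groups overlapped through ETOH-WT 1, and the log2 difference was -0.69 (95% interval -1.49 to 0.11, limma adjusted p = 0.274).

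H2-Ab1, its beta chain partner, had 32.9, 12.0 and 19.4 FPKM in ETOH-WT livers, against 46.5, 29.0 and 18.6 FPKM in PF-WT livers. Here PF-WT 3 was below ETOH-WT 1 and ETOH-WT 3, and the log2 difference was -0.54 (95% interval -1.45 to 0.36, limma adjusted p = 0.447). H2-Eb1 had 20.5, 8.26 and 12.6 FPKM in ETOH-WT livers, against 33.6, 17.8 and 14.9 FPKM in PF-WT livers. PF-WT 1 was again the highest, ETOH-WT 1 lay above PF-WT 2 and PF-WT 3, and the log2 difference was -0.64 (95% interval -1.46 to 0.17, limma adjusted p = 0.317). Group means of the 4 genes were 31.6% to 37.9% lower in ETOH-WT livers, within the spread between livers of one diet. The size of the difference turned on single livers. The median over the 4 genes was -0.99 without ETOH-WT 1 and -0.90 without PF-WT 3, and it was -0.37 without ETOH-WT 2 and -0.36 without PF-WT 1. None of the 4 passed in any of these fits.

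The class II genes moved together from liver to liver. Cd74 differed 3.69 times between its highest and lowest liver, whereas the ratio of H2-Aa to Cd74 stayed between 0.378 and 0.419. Likewise H2-Ab1 stayed between 0.289 and 0.369 of Cd74, and H2-Eb1 between 0.196 and 0.253. The sum of the 3 chains relative to Cd74 was 1.01, 0.974 and 0.958 in ETOH-WT livers, against 1.02, 0.898 and 0.926 in PF-WT livers. These overlapped, with a log2 difference of 0.05 (exact permutation p = 0.5, adjusted p = 0.6).

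Since bulk liver holds several cell types, class II levels were set beside marker lists. In such tissue, fewer cells of a type and less RNA per cell cannot be told apart. The liver label held, as 8 hepatocyte markers summed to 66605 to 72578 FPKM in ETOH-WT and 75244 to 84629.7 FPKM in PF-WT livers. Most of each sum was Alb, at 46953 to 52847 FPKM in ETOH-WT and 53968 to 60199 FPKM in PF-WT livers. Tat was the only one of the 8 that passed the test, lower in ETOH-WT livers, beside 2.67% of all genes tested. For 3 of the 8 every ETOH-WT liver was below every PF-WT liver, against 11.2% of all genes tested. Markers of T and NK cells, cholangiocytes, stellate cells, neutrophils and erythroid cells had no call by limma, beside 6.64% of all genes tested. Only 4 of 11 T and NK, 3 of 5 cholangiocyte and 4 of 6 neutrophil markers could be tested. The 4 neutrophil markers tested all had positive log2 differences, with a median of 0.63 beside 0.02 over all genes tested. Retnlg was the highest of them at 1.14 (limma adjusted p = 0.0515). Other lists were as uniform on the negative side. Negative differences were found for all 5 erythroid markers (median -0.35) and all 3 cholangiocyte markers tested (median -0.26). The same held for the 3 B cell and 3 dendritic cell markers tested, and for 13 of 14 Kupffer cell and macrophage markers. The Kupffer cell and macrophage list (Clec4f, Vsig4, Cd5l, C1qa and 10 more) summed to 509, 361 and 471 FPKM in ETOH-WT livers, against 648, 639.8 and 356 FPKM in PF-WT livers. None of its 14 genes passed and none was at 0 in any liver, and its median log2 difference was -0.24. ETOH-WT 2, the lowest liver for class II, was lowest of its diet here too, while PF-WT 3 held as little as ETOH-WT 2.

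Relative to that list, Cd74 and the 3 class II chains summed to 0.352, 0.197 and 0.230 in ETOH-WT livers, against 0.413, 0.269 and 0.348 in PF-WT livers. The ETOH-WT 1 ratio lay inside the PF-WT range, and those of ETOH-WT 2 and ETOH-WT 3 were below it. The B cell markers Cd79a, Cd79b and Cd22 summed to 1.35 to 1.61 FPKM in ETOH-WT and 1.13 to 3.91 FPKM in PF-WT livers. PF-WT 1, the highest liver for class II, was also highest for B cell markers. It was highest too for the Kupffer, dendritic, T and NK, sinusoidal endothelial and hepatocyte sums. It was not the highest for the cholangiocyte, stellate, neutrophil or erythroid sums. The 10 dendritic cell markers summed to 2.70 to 4.51 FPKM in ETOH-WT and 3.57 to 6.55 FPKM in PF-WT livers, and 7 of the 10 were too low to test. Neither list had a call or a gene at 0, and the 9 sinusoidal endothelial markers, again with no call, summed to 139 to 183 FPKM in ETOH-WT and 155 to 184 FPKM in PF-WT livers. The part of these cells in the class II levels was not tested.

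**Figure D2:**
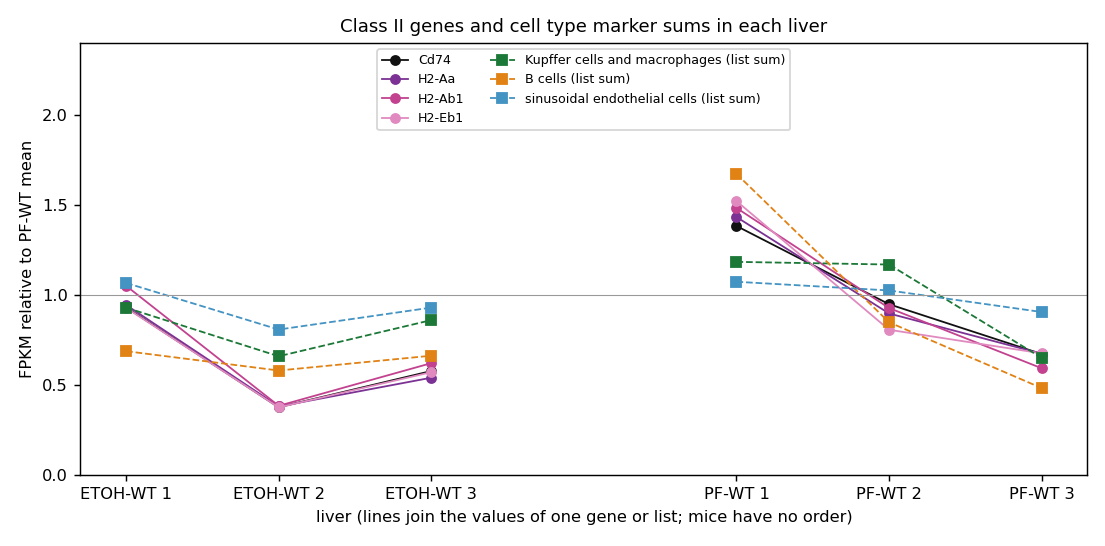
FPKM relative to the PF-WT mean (y axis, linear) of the 4 class II genes (circles) and of the summed markers of Kupffer cells and macrophages, B cells and sinusoidal endothelial cells (squares) in each liver (x axis). The 4 class II genes lie almost on each other, highest in PF-WT 1 and lowest in ETOH-WT 2, and the Kupffer sum is low in PF-WT 3 (356 FPKM) and ETOH-WT 2 (361 FPKM).

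The class Ib chains are relatives of H2-K1 and H2-D1 with little variation between strains. Of 15 class Ib and class I-like genes tested, 3 fell in ETOH-WT livers, none rose and 12 did not pass, where 2.67% of all genes tested were called lower and 3.97% higher, and the median log2 difference was -0.13. An unadjusted limma p under 0.05 was found for 6 of the 15, against 23.7% of all genes tested. The diets did not overlap for 2 genes on the higher side and 4 on the lower, against 17.9% and 11.2% of all genes tested. H2-Q1 had 1.20, 1.5 and 0.826 FPKM in ETOH-WT livers, against 6.60, 10.4 and 9.99 FPKM in PF-WT livers. Its groups were far apart, at a mean of 0.130 of the PF-WT level, and the log2 difference was -2.19 (SE 0.18, limma adjusted p = 0.00139), past the threshold in all 15 alternatives. H2-Q1 shared 22% of its 51-base stretches with other genes, 11.5% with H2-Q2 alone. H2-Q2 had 0.456 to 0.795 FPKM in ETOH-WT and 0.570 to 0.726 FPKM in PF-WT livers. Two-way sharing also reached far more abundant genes. H2-Q1 was the gene sharing most with H2-D1 (6.55% of the stretches of H2-D1) and with H2-Q10 (5.50% of those of H2-Q10). The reads of H2-Q1 are therefore uncertain.

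H2-Q10, a class I chain that hepatocytes secrete, had 1.11 to 1.54 times the level of H2-K1 in ETOH-WT livers and 1.51 to 1.97 times in PF-WT livers. It had 740.3, 959 and 721 FPKM in ETOH-WT livers, against 1158, 1281 and 1308 FPKM in PF-WT livers. All ETOH-WT livers were below all PF-WT livers, the mean was 35.4% lower in ETOH-WT livers, and the log2 difference was -0.64 (SE 0.13, limma adjusted p = 0.0327). The call was narrow, at adjusted p = 0.0819, 0.130, 0.0567, 0.133 and 0.0731 without ETOH-WT 1, ETOH-WT 3, PF-WT 1, PF-WT 2 and PF-WT 3 in turn. The promoter of H2-Q10, chr17:35469914-35470098 on the plus strand, is printed to compare with those of H2-K1 and H2-D1, since of the 3 elements it held only the interferon element, from -155 to -147.
H2-Q10: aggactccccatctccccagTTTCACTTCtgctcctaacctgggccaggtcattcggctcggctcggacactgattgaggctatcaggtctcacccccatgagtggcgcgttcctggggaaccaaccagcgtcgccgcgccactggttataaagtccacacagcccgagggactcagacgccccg

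The third, H2-Q6, a chain of the Qa-2 antigen, had 14.7, 11.1 and 13.8 FPKM in ETOH-WT livers, against 23.9, 24.2 and 19.5 FPKM in PF-WT livers. The groups did not overlap and the log2 difference was -0.73 (SE 0.13, limma adjusted p = 0.0198). This call was lost without ETOH-WT 3 (0.0662), PF-WT 1 (0.0551) or PF-WT 2 (0.0880). H2-Q6 shared 34.3% of its 51-base stretches with other genes, 13.7% with H2-Q7 alone, so its reads are uncertain. H2-Q7 itself had 27.7, 24.6 and 29.3 FPKM in ETOH-WT livers, against 35.2, 38.6 and 22.4 FPKM in PF-WT livers, which overlapped (adjusted p = 0.571). Mr1, which presents vitamin metabolites to MAIT cells, did not pass, although its ETOH-WT livers (1.99, 2.66 and 1.89 FPKM) were all below its PF-WT livers (2.77, 5.55 and 4.17 FPKM), with a log2 difference of -0.67 (limma adjusted p = 0.0895). H2-Q4 followed at -0.39 (adjusted p = 0.189) and H2-T24 at -0.21 (adjusted p = 0.537). The highest differences were in Azgp1, a secreted class I-like glycoprotein, at 0.35 (adjusted p = 0.0731), and H2-T22, at 0.21 (adjusted p = 0.246). Fcgrt, the neonatal Fc receptor, followed at 0.18 (adjusted p = 0.214). Azgp1 and Fcgrt had every ETOH-WT liver above every PF-WT liver, as for 17.9% of all genes tested. The opposite separation, seen in Mr1, held for 11.2%.

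**Figure D3:**
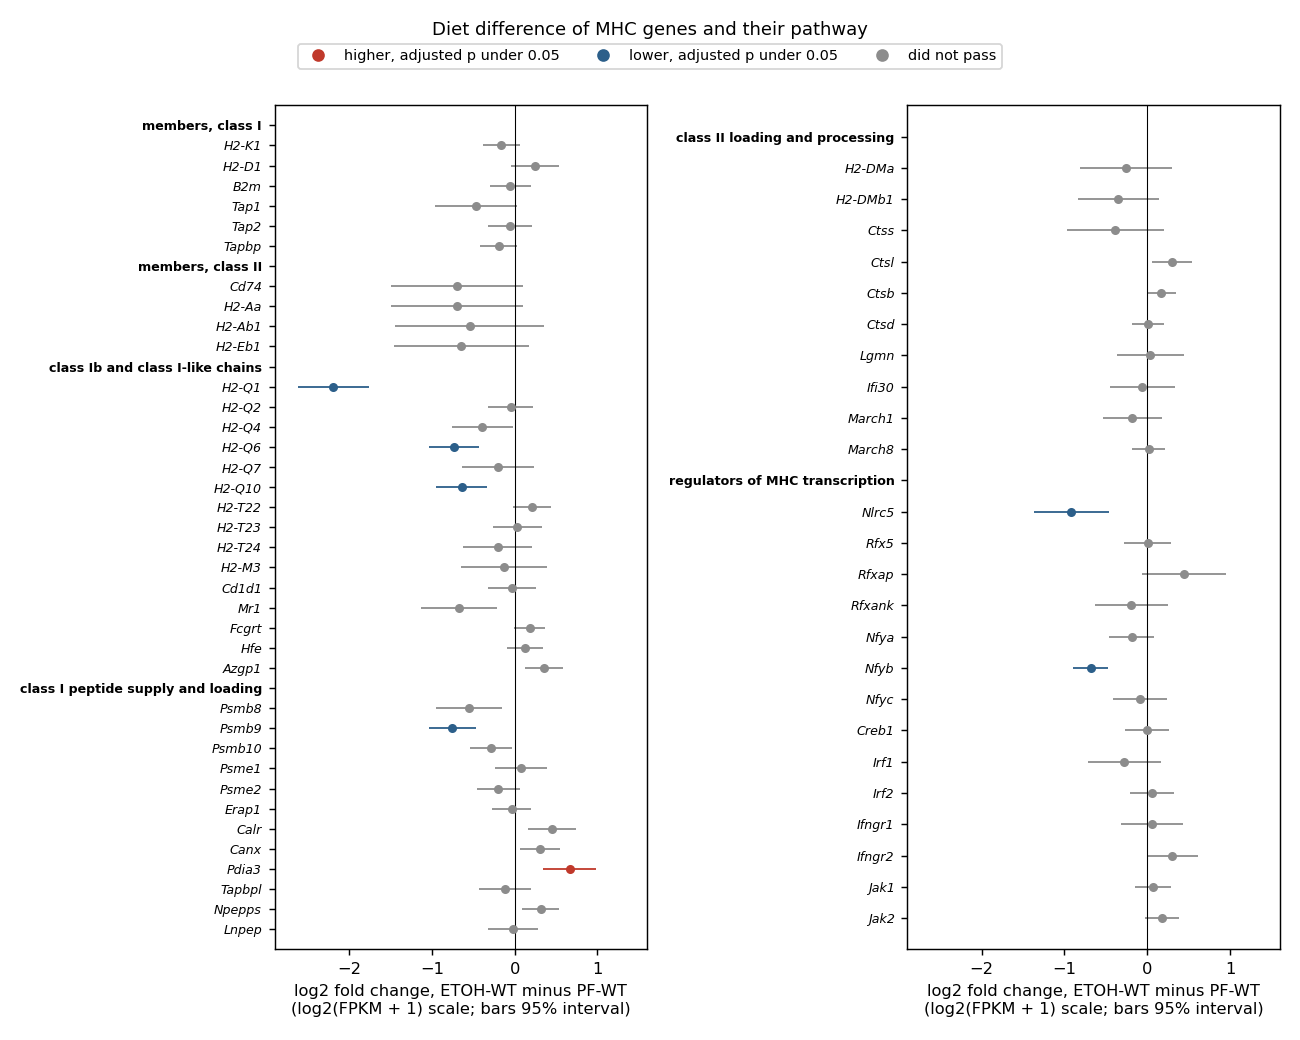
Log2 difference, ETOH-WT minus PF-WT (x axis, log2(FPKM + 1) scale, bars 95% interval), of the MHC genes and of 4 pathway lists. The 10 MHC genes did not pass (grey), H2-Q1 lies furthest to the left at -2.19, and Pdia3 at 0.67 is the only gene shown that passed on the higher side.

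In the supply of peptide, 1 of 12 genes tested rose, 1 fell and 10 did not pass (median log2 difference -0.03), beside 3.97% of all genes called higher and 2.67% lower. An unadjusted limma p under 0.05 was found for 7 of the 12, against 23.7% of all genes tested. The diets did not overlap for 4 genes on the higher side and 3 on the lower, against 17.9% and 11.2% of all genes tested. Psmb9 encodes an immunoproteasome subunit, which takes the place of Psmb6 in the proteasome when interferon is present. It had 10.9, 9.84 and 9.70 FPKM in ETOH-WT livers, against 20.9, 17.6 and 15.2 FPKM in PF-WT livers. The groups did not overlap, and the log2 difference was -0.75 (SE 0.12, limma adjusted p = 0.0151), which was lost without ETOH-WT 3 (0.0662) or PF-WT 2 (0.0670). Psmb9 overlaps its neighbour Tap1, with 9.65% of its 51-base stretches shared.

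The other immunoproteasome subunits did not pass. Psmb8 had 20.4, 19.4 and 18.4 FPKM in ETOH-WT livers, against 36.2, 31.1 and 21.4 FPKM in PF-WT livers, with a log2 difference of -0.55 (SE 0.17, limma adjusted p = 0.0986). Psmb10 had 33.4, 35.4 and 32.3 FPKM in ETOH-WT livers, against 42.4, 46.2 and 35.6 FPKM in PF-WT livers, with a log2 difference of -0.28 (limma adjusted p = 0.165). Both had every ETOH-WT liver below every PF-WT liver, which 11.2% of all genes tested showed in that direction. Psmb8 passed without PF-WT 3 (adjusted p = 0.0158) and with array weights (0.0111), and Psmb10 passed with array weights (0.0177). The constitutive subunits that they replace, Psmb5, Psmb6 and Psmb7, had log2 differences of 0.01, 0.06 and -0.04 with adjusted p of 0.962, 0.800 and 0.905, and the proteasome activator Psme3 was at 0.16 (adjusted p = 0.296).

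Within a liver, the ratio of Psmb9 to Psmb6 was 0.0585, 0.0427 and 0.0510 in ETOH-WT livers, against 0.116, 0.0928 and 0.0724 in PF-WT livers. The ETOH-WT ratios were all lower, with a log2 difference of -0.87 (exact permutation p = 0.1, adjusted p = 0.3). Psmb8 to Psmb5 was 0.375, 0.260 and 0.305 in ETOH-WT livers, against 0.590, 0.523 and 0.328 in PF-WT livers (exact permutation p = 0.2, adjusted p = 0.4). Psmb10 to Psmb7 was 0.314, 0.245 and 0.309 in ETOH-WT livers, against 0.348, 0.414 and 0.280 in PF-WT livers (exact permutation p = 0.3, adjusted p = 0.45). The last 2 ratios overlapped between diets.

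**Figure D4:**
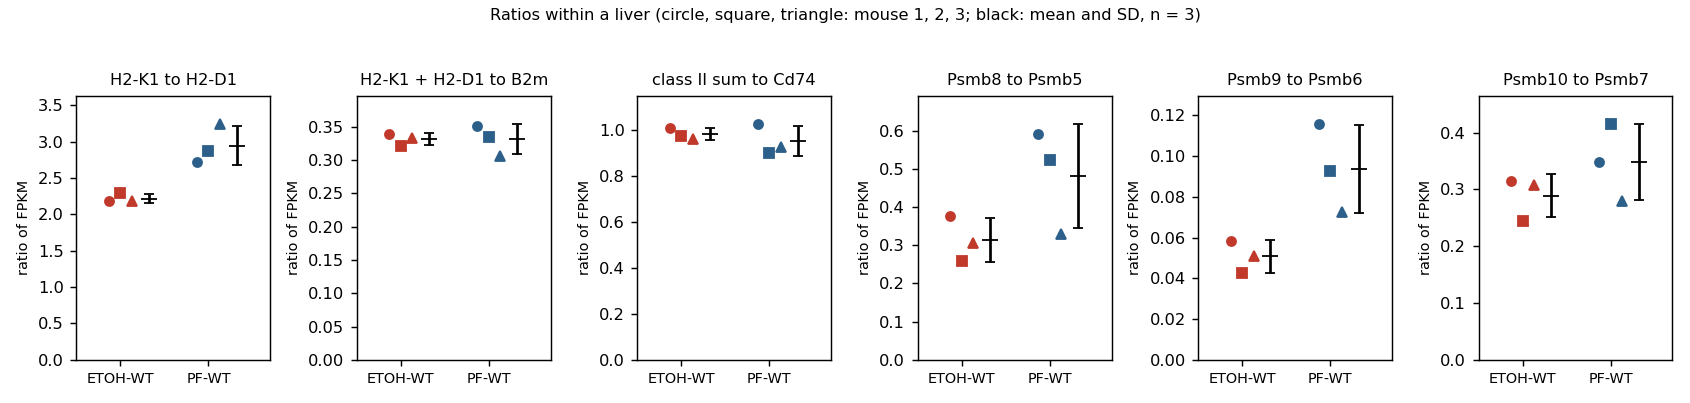
Ratios of FPKM within a liver (y axes from 0, no unit) in ETOH-WT livers (red) and PF-WT livers (blue), 1 point per mouse, with mean and SD (n = 3) in black. H2-K1 to H2-D1 and Psmb9 to Psmb6 do not overlap between diets, and the other 4 ratios do.

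Pdia3, the disulfide isomerase of the peptide-loading complex, had 261, 286 and 332 FPKM in ETOH-WT livers, against 220.2, 171 and 165 FPKM in PF-WT livers. It rose by a log2 difference of 0.67 (SE 0.14, limma adjusted p = 0.0323), with no overlap. The call was lost without ETOH-WT 2 (0.0610), ETOH-WT 3 (0.119), PF-WT 2 (0.134) or PF-WT 3 (0.0775), and with quantile normalization (0.0587). Calr and Canx, the lectin chaperones of new heavy chains, had log2 differences of 0.45 (adjusted p = 0.0718) and 0.31 (adjusted p = 0.122), with every ETOH-WT liver above every PF-WT liver, as for 17.9% of all genes tested. Npepps, a peptide-trimming aminopeptidase of the cytosol, was at 0.31 (adjusted p = 0.0963), and Psme2, a proteasome activator subunit, at -0.20 (adjusted p = 0.340). Pdia3, Calr and Canx also fold many other secreted proteins.

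In class II loading and processing, 10 of 13 genes could be tested. None passed by limma, beside 6.64% of all genes tested, and 1, Ctsl, had an unadjusted p under 0.05, against 23.7%. The diets did not overlap for 2 of them, Ctsl and Ctsb, both with ETOH-WT livers above, as for 17.9% of all genes tested. With array weights Ctsl was called higher (adjusted p = 0.0324). H2-DMa and H2-DMb1, the chains of the peptide editor DM, had log2 differences of -0.26 (95% interval -0.81 to 0.30) and -0.35 (95% interval -0.83 to 0.14). Ctss, the protease that clears the invariant chain in antigen-presenting cells, had 39.8, 27.3 and 37.3 FPKM in ETOH-WT livers, against 59.8, 52.1 and 29.6 FPKM in PF-WT livers, which overlapped (limma adjusted p = 0.400). Ctsl and Ctsb, lysosomal proteases of most cells, were at 0.30 (adjusted p = 0.133) and 0.17 (adjusted p = 0.229), and Lgmn at 0.04 (adjusted p = 0.920). The list's median was -0.02. H2-DMb2, H2-Oa and H2-Ob had means under 0.5 FPKM and were not tested.

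Of 14 regulators of MHC transcription tested, 2 fell, none rose and 12 did not pass (median 0.00), beside 2.67% of all genes called lower. Nlrc5, the activator of class I genes, had 5.98, 3.78 and 3.65 FPKM in ETOH-WT livers, against 9.46, 11.2 and 7.20 FPKM in PF-WT livers. The groups did not overlap and the log2 difference was -0.92 (SE 0.20, limma adjusted p = 0.0349). It was lost without ETOH-WT 2 (0.0852), ETOH-WT 3 (0.125), PF-WT 1 (0.0861) or PF-WT 2 (0.128). Ciita, its counterpart for class II, had 0.0866 to 0.213 FPKM in ETOH-WT and 0.0986 to 0.274 FPKM in PF-WT livers, too low to test.

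Nfyb encodes a subunit of the NF-Y complex, whose Y box stands in the printed promoters of H2-K1, H2-D1, H2-Aa and H2-Eb1. The promoter of H2-Q10 held no match to it. Nfyb had 14.2, 16.2 and 14.5 FPKM in ETOH-WT livers, against 25.9, 24.9 and 23.2 FPKM in PF-WT livers. These were well apart, and the log2 difference was -0.68 (SE 0.09, limma adjusted p = 0.00798), past the threshold in all 15 alternatives.

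The partners of Nfyb did not pass. Nfya had a log2 difference of -0.19 (95% interval -0.46 to 0.08, adjusted p = 0.377) and Nfyc one of -0.09 (95% interval -0.41 to 0.24, adjusted p = 0.754). Rfxap, a subunit of the RFX complex that binds class II promoters, had the highest difference of the regulators, 0.45 (adjusted p = 0.268), followed by Ifngr2, a chain of the interferon gamma receptor, at 0.31 (adjusted p = 0.215), and the kinase Jak2, at 0.18 (adjusted p = 0.274). Irf1, an interferon-induced activator, had 12.4, 13.1 and 14.9 FPKM in ETOH-WT livers, against 22.5, 15.9 and 12.5 FPKM in PF-WT livers, and did not pass (adjusted p = 0.423). Rfxank, another RFX subunit, was at -0.19 (adjusted p = 0.588).

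**Figure D5:**
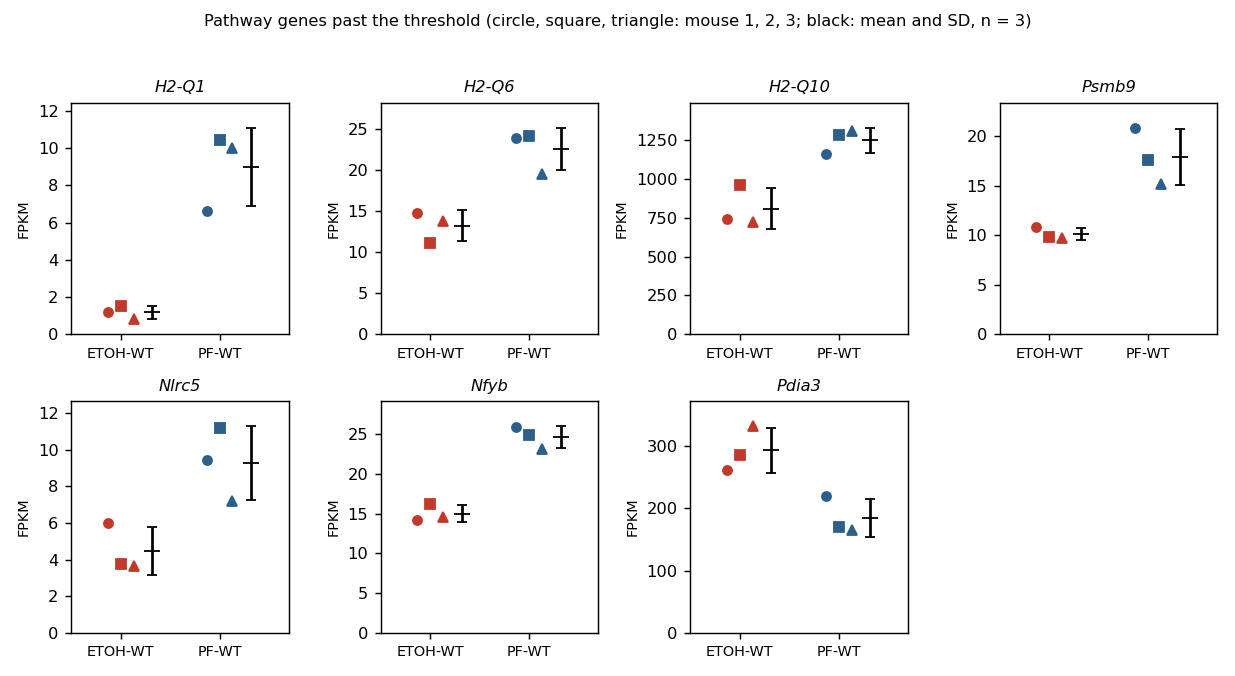
FPKM (y axes from 0) of the 7 pathway genes past the threshold in ETOH-WT livers (red) and PF-WT livers (blue), 1 point per mouse, with mean and SD (n = 3) in black. The groups do not overlap in any panel, with ETOH-WT livers lower in 6 panels and higher for Pdia3.

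None of 3 costimulation and checkpoint genes tested passed by limma, although 2 had an unadjusted p under 0.05, as did 23.7% of all genes tested. Cd274, which encodes PD-L1, had 0.612, 0.634 and 0.883 FPKM in ETOH-WT livers, against 1.81, 1.35 and 0.971 FPKM in PF-WT livers (log2 difference -0.46, adjusted p = 0.106). Icam1, an adhesion molecule that T cells bind, had 7.31, 6.83 and 7.04 FPKM in ETOH-WT livers, against 5.70, 5.18 and 3.64 FPKM in PF-WT livers (log2 difference 0.48, adjusted p = 0.0871). Neither overlapped between diets, as for 29.1% of all genes tested, and they lay on opposite sides of 0. Cd86, a costimulatory ligand, was at -0.11 (adjusted p = 0.818).

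Likeness to the MHC genes was described by Pearson's r over the 6 livers, with the mean of the members' standardised log2 levels as the profile. The 6 livers share their diet groups and scaling, so r is a description. Each member is also part of its own profile, which raises its r, so it cannot be set against the r of outside genes. To the class I profile, the members H2-K1, B2m and Tap1 had r of 0.95, 0.95 and 0.94, but Tap2, Tapbp and H2-D1 had 0.71, 0.58 and 0.28. The last 3 followed the profile less closely than the first 3. The most alike genes outside it were Rbm28 at 0.996, Ms4a6c at 0.995, Pkd1 at 0.994, and Pyhin1 and Ncf1 at 0.993, among 122 genes with r of at least 0.95. Each class II gene had r of 0.991 to 0.998 to the class II profile. Gm4955 and Nup85 at 0.990, Smox at 0.989, Gripap1 at 0.987 and Fam105a at 0.986 were most alike, among 66 genes with r of at least 0.95. With so few livers many genes reach such values.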

How the data were processed

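Liver RNA of 6 mice was sequenced, 1 library per mouse. The authors deposited 1 table of FPKM, 13273 genes by 6 libraries. Its unit was inferred from fractional values with library totals between 567808 and 625003, and depth is unknown. Steps among low values put relative depth at 0.785 to 1.24 of PF-WT 2. The paper names STAR and HTSeq-count. TopHat2 2.0.11, HTSeq 0.11.2 and 1.6.3, cutadapt and mm10 are named in the submitters' processing notes. Which program made the FPKM was not given in the sources used. No column belonged to another sample. In ETOH-WT 1 no gene of the table was at 0, against 86 to 163 genes in each other liver. The absence of a 0 in ETOH-WT 1 is therefore no result about a marker. The reason for this difference between livers was not tested.

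The study's count test could not be run on FPKM, so limma 3.58.1 (R 4.3.3, two-sided, variance trend) was fitted to log2(FPKM + 1), which understates changes of low genes. The pseudocount was 1, the minimum mean 0.5 FPKM and the threshold an adjusted p of 0.05, over 11346 genes. The test was checked on simulated data with known changes. The outcome is not quoted here, so it lends no weight to the absence of calls among the 10 genes. Ratios were tested by exact permutation over livers (scipy 1.17.1). Alternatives were pseudocounts of 0.1 and 2, no filter, a minimum of 1 FPKM, median-ratio scaling, quantile normalization, no variance trend, array weights, a replicate block and each liver left out. Members and lists were chosen with earlier results of these data known. All 10 members were named, and from each pathway list every gene past the threshold, otherwise up to 3 genes with the highest and 3 with the lowest difference. H2-Q2, H2-Q7 and Nfyc were added as partners of called genes after their values were seen. Some list genes are not reported here and were left out of list counts and sums. Cages held 2 mice, and which mice shared one is not given. The p-values set the diet difference against the spread between these livers. They treat the livers as independent, which shared cages may break. Table starts were raised by 1, which matched the GENCODE vM21 annotation for 80.2% of 13248 genes. Shared stretches were counted over annotated transcripts. Promoters came from RefSeq, GRCm38.p6.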

Additional observations from a re-analysis of the deposited data

How the results depend on the processing

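For all genes tested, array weights gave 1327 higher and 945 lower calls and the replicate block 253 and 201, beside 450 and 303, and leaving out 1 liver gave 83 to 347 higher and 76 to 300 lower calls. Same-numbered livers of the 2 diets did not deviate together (r = -0.01, -0.02 and -0.03), so the numbers are not read as pairs. For Cd74, H2-Aa, H2-Ab1 and H2-Eb1, however, ETOH-WT 1 and PF-WT 1 were each the highest of their diet. The lowest were ETOH-WT 2 and PF-WT 3, which do not share a number. Under the block no MHC member was called, and H2-Q10 and Pdia3 missed the threshold (adjusted p = 0.0547 and 0.0806). The class II genes depended on this choice. The block lowered the SE of Cd74 from 0.345 to 0.206 and of H2-Aa from 0.347 to 0.174. It lowered that of H2-Ab1 from 0.392 to 0.230 and of H2-Eb1 from 0.354 to 0.161. Their limma adjusted p under the block was 0.125, 0.0903, 0.239 and 0.0896 in turn. The SE of H2-K1, B2m and Tapbp rose under the block. Array weights called 1 member, Tapbp, lower. Of the 10 members only Tap2 changed sign, ranging from -0.13 to 0.047 as each liver was left out (0.047 without ETOH-WT 2, where it did not pass). H2-Q1 and Nfyb passed in all 15 alternatives, Psmb9 in 13, H2-Q6 in 12, Nlrc5 in 11, and H2-Q10 and Pdia3 in 9. Array weights also called Mr1, Calr, Canx, Azgp1, Cd274, Icam1 and Ctsl. Mr1 and Calr passed without PF-WT 1 (0.0349 and 0.0405), and Azgp1 with quantile normalization (0.0449). The cause of these shifts was not tested. Of all calls, 59.8% were higher in ETOH-WT livers, and 50.2% with median-ratio scaling. With 3 livers a group and no block, the 95% intervals of the class II genes spanned -1.49 to 0.36 on the log2 scale. Differences inside them were not resolved.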
